A study of Mus musculus with 56 samples.

Results

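The microRNAs of fetal mouse liver were compared between embryonic day 14 (E14) and embryonic day 18 (E18). Members were chosen by the stage in the sample labels, which gave 4 of the 14 small RNA libraries of the developmental course, 42 small RNA libraries in all and 56 libraries of the whole series. Both stages are labelled liver of the 129Sv/J background, with 2 libraries each (replicates A and B), and their labels name no altered genotype, transgene or treatment. The study followed miR-122 through liver development and after its removal, and these libraries gave its fetal end. The labels name a replicate letter but no litter, sex or date, so the p-values here measure only the spread between libraries. For single microRNAs that spread is pooled over fetal and postnatal stages. Values are RPM (the reads of a microRNA, scaled to 1000000 reads in all) of the reads other than those of miR-122, unless all listed reads are named. Of the 479 microRNA hairpins in the table, 478 are other than miR-122, 408 of them had a read in at least 1 of the 4 libraries and 70 had none.

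A microRNA is cut from a hairpin RNA and guides an Argonaute protein to messenger RNAs that pair with its seed, the stretch of bases 2 to 8 from its 5′ end. The fetal liver is the main site of blood formation in mid gestation and becomes a metabolic organ toward birth, so a whole fetal liver holds red cell precursors and white cells beside hepatoblasts, the precursors of hepatocytes and bile duct cells. miR-122 is the leading microRNA of hepatocytes, miR-192 and miR-194 are found in hepatocytes and gut epithelium, and miR-451 and miR-144 mark red cell precursors. The chr12qF1 (Dlk1-Dio3) locus is imprinted, its microRNAs being made from the maternal copy. The miR-200 family marks epithelial cells, and miR-34b, miR-34c and the miR-449 group are known from multiciliated epithelia.

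The mature sequences below are from RefSeq (GRCm38.p6 positions, 5′ to 3′), with the seed in capitals. They are shown because these microRNAs are among the largest called differences, share a seed with one of those or share the seed of miR-322 and differed in direction, and miR-376a is shown as the most abundant chr12qF1 microRNA. The first 6 are of hairpins that were higher at E18, from miR-192 to miR-154, then come those that were lower, and the last 2 had more reads at E18 without passing the test.
mmu-miR-192-5p: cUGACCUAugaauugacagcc
mmu-miR-194-5p: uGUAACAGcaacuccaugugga
mmu-miR-223-3p: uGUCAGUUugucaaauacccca
mmu-miR-376a-3p: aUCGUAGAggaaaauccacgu
mmu-miR-376b-3p: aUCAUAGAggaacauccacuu
mmu-miR-154-5p: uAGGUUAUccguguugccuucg
mmu-miR-449a-5p: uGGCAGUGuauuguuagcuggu
mmu-miR-449c-5p: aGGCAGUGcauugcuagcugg
mmu-miR-34b-5p: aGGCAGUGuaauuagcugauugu
mmu-miR-200b-3p: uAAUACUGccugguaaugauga
mmu-miR-200c-3p: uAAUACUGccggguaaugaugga
mmu-miR-141-3p: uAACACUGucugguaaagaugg
mmu-miR-92b-3p: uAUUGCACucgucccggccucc
mmu-miR-503-5p: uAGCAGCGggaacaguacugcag
mmu-miR-322-5p: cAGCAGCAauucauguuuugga
mmu-miR-195a-5p: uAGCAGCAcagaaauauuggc
mmu-miR-15b-5p: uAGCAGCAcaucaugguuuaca
mmu-miR-16-5p: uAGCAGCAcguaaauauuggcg

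The tables print hairpins, not arms, so a value covers both arms of a hairpin. miR-449a, miR-449c and miR-34b have the same seed, so do miR-200b and miR-200c, with a related one in miR-141, and so do miR-322, miR-195, miR-15b and miR-16, with a related one in miR-503. miR-192 (chr19:6264844-6264932) and miR-194-2 (chr19:6264643-6264728) lie 115 bases apart, with no other gene over them in the annotation used. miR-200c (chr6:124718322-124718390) and miR-141 (chr6:124717914-124717985) lie 336 bases apart. miR-449c and miR-449a (chr13:113037534-113037624) lie 1442 bases apart within the span of Cdc20b. miR-34c and miR-34b (chr9:51103562-51103645) lie side by side within the spans of Btg4 and Hoatz, and miR-503 and miR-322 (chrX:53054255-53054349) are 200 bases apart within that of C430049B03Rik. Of the hairpins in the table, 355 matched a RefSeq hairpin by name.

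The libraries were of unequal depth and the E14 pair did not match. Listed reads numbered 34105 and 397390 at E14 and 622242 and 792786 at E18, so 1 read was worth 29.4 RPM in E14 replicate A and 2.16 to 2.52 RPM in the other 3. A microRNA with no read may reach the worth of 3 reads, 88.3 RPM in E14 replicate A and 6.49 to 7.56 RPM in the others. The listed values of E14 replicate A add up to 67.7% of the authors' total and those of the other 3 to 100.0%. Across the 276 microRNAs tested, the log2 values of the E14 libraries correlated at r = 0.66 and those of the E18 libraries at r = 0.98, while E14 with E18 gave 0.57 to 0.62 and E18 with P1, the first day after birth, 0.90 to 0.95. These correlations are across microRNAs, which are not independent replicates. The E14 libraries differed by more than 4-fold for 109 of the 276 microRNAs and the E18 libraries for 2, and the plot of replicate A against replicate B shows this spread.

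**Figure D1:**
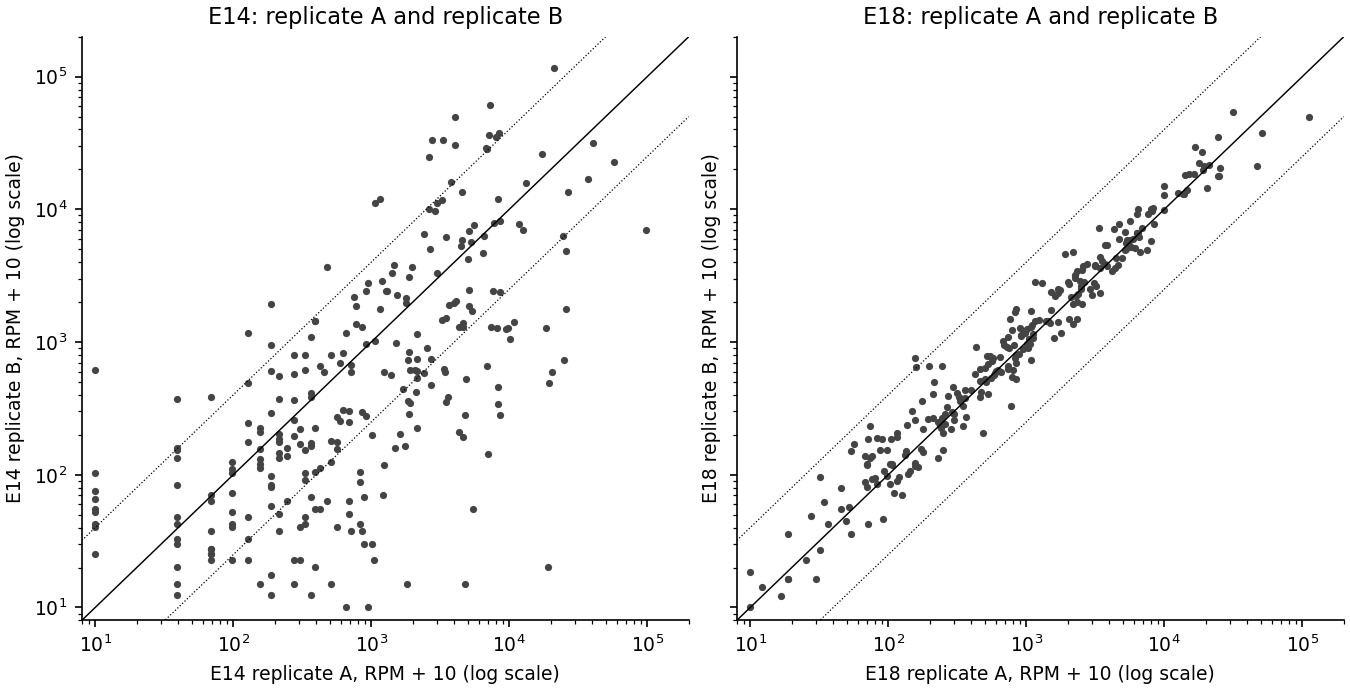
Replicate A (x axis) against replicate B (y axis) for the 276 tested microRNAs at E14 (left) and E18 (right), in RPM of reads other than miR-122 plus 10 on log scales, with the line of equal values and dotted lines at 4-fold. The E14 points spread far past the dotted lines (109 microRNAs) and the E18 points stay close to the diagonal (2 past 4-fold).

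The labelled tissue was checked against its defining microRNAs. Most of the hepatocyte list was low at E14, with miR-122 under 0.5% of reads, miR-192 at 11 and 32 reads, miR-194-1 at 1 and 4 reads, miR-194-2 at 1 and 8 reads and miR-802 at 0 reads in both libraries. The exception was miR-148a, which had 61 reads in E14 replicate A (1796 RPM, above both E18 values) and 2 in replicate B. The red cell list was also lower at E14 than at E18, 2.99% and 0.845% at E14 and 16.4% and 7.59% at E18. Epithelial microRNAs were higher in the same E14 libraries than at E18, the miR-200 family at 7.05% and 2.82% at E14 and 0.505% and 0.569% at E18 and miR-449a at 10100 and 1038 RPM at E14 and 8.84 and 6.49 RPM at E18. So the hepatocyte microRNAs other than miR-148a were low or without reads in the libraries labelled E14 and the red cell ones were present but lower than at E18, and whether the tissue taken or its stage sets each difference below cannot be told apart. In whole tissue, moreover, fewer cells of a type and less RNA per cell cannot be told apart.

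miR-122 went from a trace to the leading microRNA. It took 0.425% of all listed reads in E14 replicate A (95% Wilson interval 0.361 to 0.500%) and 0.114% in E14 replicate B (0.104 to 0.125%), against 27.2% and 41.7% at E18 (27.1 to 27.4% and 41.6 to 41.8%). The intervals cover counting error only, since reads of amplified libraries are not independent molecules. The stage means were 0.270% ± 0.220 and 34.5% ± 10.2 (SD, n = 2 each), a 128-fold difference of means, which was 302.4-fold without E14 replicate A, 81.1-fold without E14 replicate B, 172-fold over the authors' total and 201.4-fold per read of the other microRNAs. An exact two-sided permutation test gave p = 0.333, the smallest that 2 libraries against 2 allow. Because miR-122 fills 27.2% and 41.7% of the E18 reads and almost none at E14, each other microRNA is lower at E18 over all listed reads than over the reads other than miR-122, so the calls are given on both scales.

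Of the 276 microRNAs that averaged 50 RPM or more over the 4 libraries, 19 were higher at E18 (6.88%) and 16 lower (5.8%) at an adjusted p under 0.05. The test was limma on log2(RPM + 10) with Benjamini-Hochberg adjustment, in 1 fit of the 10 libraries of the 5 stages with 2 libraries (E14, E18, P1, P8 and P270). That fit pools the spread of a microRNA over these stages. The median absolute log2 difference between libraries was 1.67 at E14 and 0.32 at E18, so the SE and p-values can understate the E14 spread. Fold changes are differences of means on that log2 scale, where the added 10 RPM tends to shrink those of low microRNAs. They can exceed or oppose the ratio of stage means where the E14 libraries disagree. For miR-148a the log2 difference was 1.28, while the E18 mean was 0.49 times the E14 mean. The median difference over all tested microRNAs was 0.67, with 178 of 276 above 0, so each value below is to be read against that shift. Over all listed reads the median was 0.04, and 7 of 265 microRNAs were higher (2.64%) and 16 lower (6.04%), which takes the share of rises among the calls from 54.3% to 30.4%. The 7 are miR-122 itself and 6 of the 19 (miR-192, both hairpins of miR-194, miR-223, miR-376b and miR-412), and of the 16 lower ones 14 passed there too, all but miR-195 and miR-322. Replicate A minus replicate B correlated positively in all 10 pairs of stages (0.14 to 0.70), but at only 0.21 for E14 with E18. With the letter as a replicate block 46 were higher (16.7%) and 23 lower (8.33%), all 35 calls included. In all 35 called microRNAs both E18 libraries lay on 1 side of both E14 libraries, as they did for 103 of the 276 above (37.3%) and 54 below (19.6%). Without the shallow E14 replicate A there were 38 higher and 16 lower, and without E14 replicate B 17 and 20, and 23 of the 35 calls passed in both of these fits. The lone E14 library is assumed there to vary like the other stages, although the E14 pair varied most, so that a call which passed is no sign of stability. The calls of miR-376a and miR-29a were lost in either, those of miR-323 and miR-322 without replicate A, and those of miR-376b, miR-154, miR-377, miR-409, miR-300, miR-499, miR-195 and miR-150 without replicate B. With 1 E18 library left out, 1 higher and 2 lower remained (without replicate A) or 1 and 6 (without replicate B), and the 4 fetal libraries fitted alone gave 2 and 1. None of the 35 changed sign in any of these fits. The lack of overlap fixed this in advance for the fits without a library, with the block or of the fetal libraries alone.

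**Figure D2:**
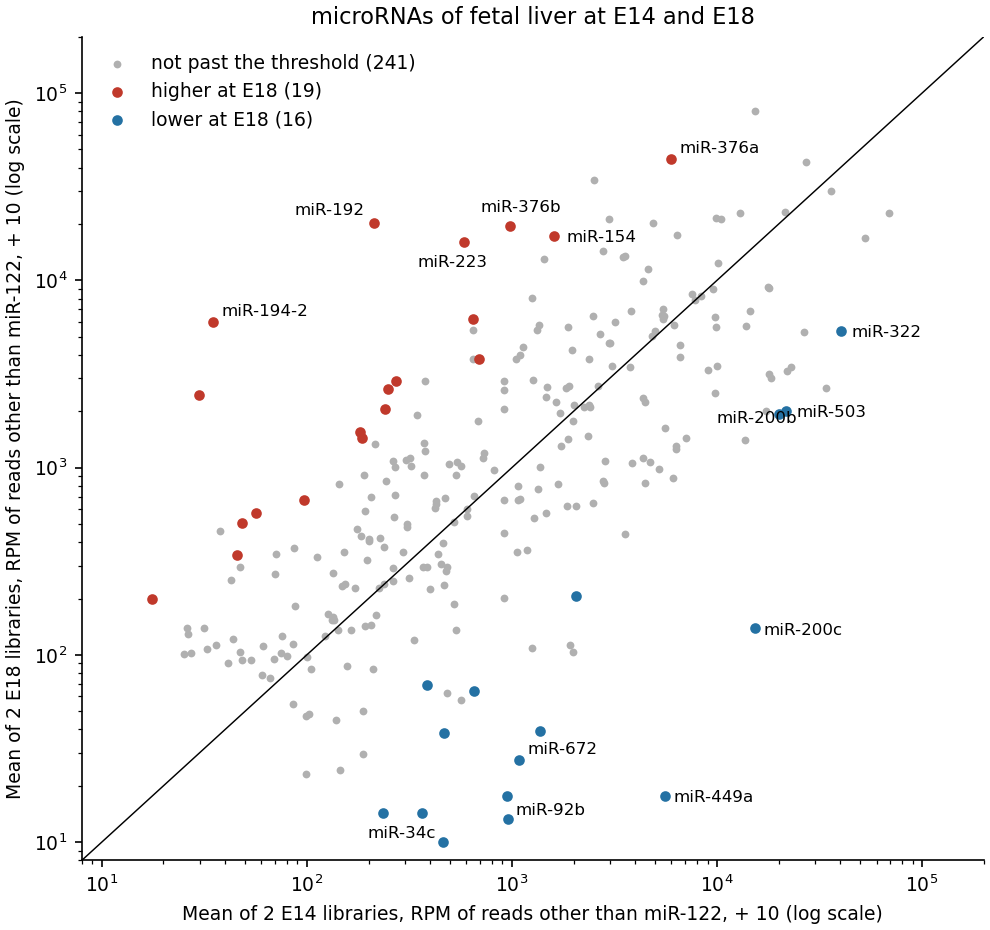
Mean of the 2 E14 libraries (x axis) against mean of the 2 E18 libraries (y axis) for the 276 tested microRNAs, in RPM of reads other than miR-122 plus 10 on log scales, coloured by the limma call. The 19 higher microRNAs stand far above the line of equal values and the 16 lower ones far below it, several of them at the floor of the E18 scale.

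The 3 largest rises were those of miR-192 and the 2 hairpins of miR-194, of the hepatocyte list. miR-194-2 had 29.4 and 20.2 RPM at E14 and 5206 and 6720 RPM at E18, miR-192 had 324 and 80.6 RPM at E14 and 19372 and 21149 RPM at E18 and miR-194-1 had 29.4 and 10.1 RPM at E14 and 2001 and 2839 RPM at E18. In each of them the stages stood far apart and the E18 libraries matched within 1.42-fold. The log2 differences were 7.42 ± 1.19, 6.86 ± 0.91 and 6.41 ± 1.12 (SE, limma, adjusted p = 0.00585, 0.00237 and 0.00672), and all 3 passed over all listed reads as well. The 2 hairpins of miR-194 give the same mature miR-194-5p, so how its reads were shared between them is uncertain. miR-148a, another abundant microRNA of adult liver, had 1796 and 5.04 RPM at E14 and 234 and 647 RPM at E18, and its E14 libraries fell on both sides of the E18 values (adjusted p = 0.797). miR-802 had no read at E14 and 6.63 and 54.1 RPM at E18, under the floor of E14 replicate A. Of the 4 tested microRNAs of the hepatocyte list, 3 were higher and none lower (6.88% and 5.8% of all tested). The summed share of its 5 listed microRNAs other than miR-122 went from 0.115% ± 0.146 to 2.91% ± 0.324 of reads (SD, n = 2 each). miR-29a, whose family targets collagen messages, had 177 and 282 RPM at E14 and 2187 and 1913 RPM at E18, with a log2 difference of 3.14 ± 0.81 (SE, limma, adjusted p = 0.0361). Its call was lost when either E14 library was left out, and over all listed reads.

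The imprinted chr12qF1 locus gave 13 of the 19 rises over the reads other than miR-122 and 2 of the 7 over all listed reads. Of its 52 listed microRNAs 45 were tested, 13 were higher and none lower (6.88% of all tested were higher), and all 45 differences were above 0 (178 of 276 in all), with a median of 2.50 beside 0.67 for all tested microRNAs. With the replicate block 24 were higher (16.7% of all tested), and the 2 over all listed reads were miR-376b and miR-412. Both E18 libraries exceeded both E14 libraries for 37 of the 45 (37.3% of all tested). The summed share was 7.86% and 4.57% at E14 and 27.2% and 23.4% at E18, with the shallow E14 library the nearer one to E18. miR-376b had 1384 and 557 RPM at E14 and 18973 and 19952 RPM at E18, and its neighbour miR-376a had 5065 and 6832 RPM at E14 and 51051 and 37860 RPM at E18. Both stood clear of the spread at either stage, with log2 differences of 4.45 ± 0.96 and 2.90 ± 0.77 (SE, limma, adjusted p = 0.0155 and 0.0384). miR-154 had 2709 and 464 RPM at E14 and 20291 and 14390 RPM at E18, miR-377 had 471 and 52.9 RPM at E14 and 2322 and 3436 RPM at E18 and miR-409 had 383 and 95.7 RPM at E14 and 3011 and 2259 RPM at E18. In these the E14 libraries differed by 5.84-fold, 8.91-fold and 4.00-fold, and the log2 differences from E18 were 3.91 ± 1.06, 4.03 ± 1.04 and 3.68 ± 0.88 (SE, limma, adjusted p = 0.0403, 0.0361 and 0.0247). miR-329 had 589 and 690.3 RPM at E14 and 7442 and 4965 RPM at E18, with E14 libraries within 1.2-fold of each other and a log2 difference of 3.23 ± 0.72 (SE, adjusted p = 0.0177). miR-667, miR-412 and miR-666 were low at E14, with 0, 0 and 2 reads in replicate A, and reached 168 to 577 RPM at E18. The other called members were miR-487b, miR-323, miR-485 and miR-300, with log2 differences of 2.46 to 3.12.

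The called members that could be placed lay in 1 stretch of the locus. The 50 members that matched RefSeq lie between positions 109563692 and 109743795 of chromosome 12, with the longest gap, 90.7 kb, between miR-370 and miR-379. Of the 12 tested members before the gap, which lie in the spans of Rtl1 and Rian, none passed the threshold and the median log2 difference was 1.62. Of the 32 tested members after it, which run to the hairpins within Mirg, 12 were higher and the median was 2.81. The summed share of the first stretch was 3.97% and 2.37% at E14 and 7.70% and 6.84% at E18, and that of the second 3.88% and 2.199% at E14 and 19.5% and 16.5% at E18. This split was made after the values were seen and the difference between the stretches was not tested. In the first stretch miR-127, an antisense microRNA of Rtl1, had 3799 and 15947 RPM at E14 and 21266 and 21555 RPM at E18 (log2 difference 1.46 ± 1.14, SE, limma, adjusted p = 0.452), and miR-434 had 2150 and 529 RPM at E14 and 6715 and 4760 RPM at E18 (adjusted p = 0.112, past the threshold with the block). In the second stretch miR-379, miR-411 and miR-541 had log2 differences of 0.71 ± 0.83, 1.43 ± 0.71 and 2.44 ± 0.81 (SE) and did not pass, though miR-541 did with the block.

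**Figure D3:**
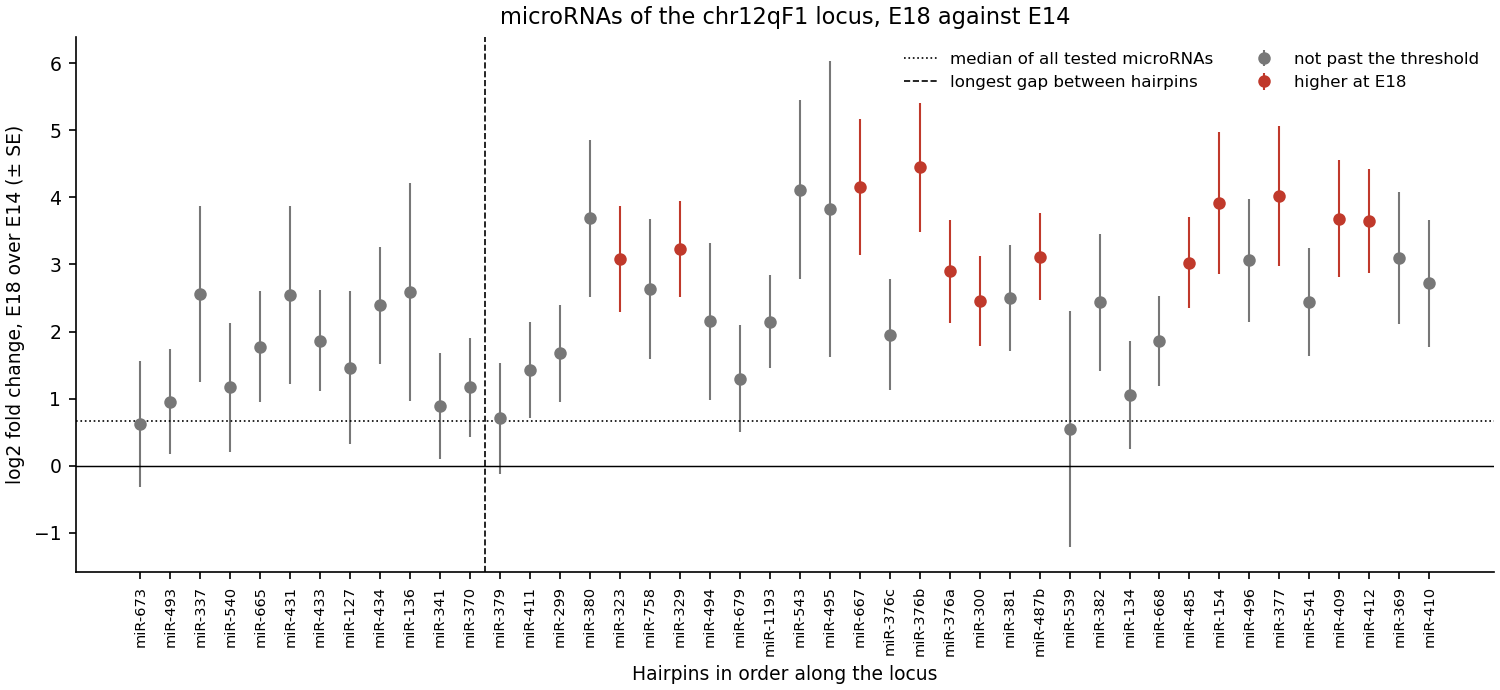
log2 fold change of E18 over E14 with its SE (y axis, limma) for the 44 tested chr12qF1 microRNAs that matched RefSeq, in their order along the locus (x axis), called ones in red. All points lie above 0, and the 12 red ones are all to the right of the dashed line at the 90.7 kb gap.

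The other imprinted locus, Igf2 and H19 on chromosome 7, holds miR-483 in Igf2 and miR-675 in H19. miR-483 had 118 and 1151 RPM at E14 and 5697 and 5160 RPM at E18, both E18 values above both E14 values, but the E14 libraries differed by 9.77-fold and the log2 difference of 3.82 ± 1.13 (SE, limma) missed the threshold (adjusted p = 0.0573). It passed with the replicate block and not over all listed reads. miR-675 had 177 and 70.5 RPM at E14 and 247 and 279 RPM at E18 (log2 difference 1.15 ± 0.74, adjusted p = 0.348), with 6 reads behind the value of E14 replicate A.

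Of the microRNAs of blood cells, miR-223 rose and miR-150 fell, 1 each of the 8 tested. Of all tested 6.88% were higher and 5.8% lower, and nothing is read from these counts. Of the red cell list, miR-144 had 4741 and 272 RPM at E14 and 47415 and 21153 RPM at E18, miR-451 had 24382 and 6321 RPM at E14 and 111254 and 49314 RPM at E18 and miR-486 had 766 and 1854 RPM at E14 and 5412 and 5435 RPM at E18. In all 3 both E18 libraries lay above both E14 libraries, as in 37.3% of all tested. The E18 libraries themselves differed by 2.24-fold for miR-144 and 2.26-fold for miR-451, its neighbour 99 bases away. None of the 3 passed (log2 differences 4.77 ± 1.43, 2.58 ± 0.99 and 2.18 ± 1.11, SE, limma, adjusted p = 0.0575, 0.132 and 0.224), nor did any over all listed reads. With the replicate block 2 of the 3 were higher (16.7% of all tested). Of the 6 microRNAs of the white cell list 5 were tested, 1 was higher and 1 lower. miR-223, a microRNA of neutrophils and other myeloid cells, had 854 and 289.7 RPM at E14 and 14069 and 18122 RPM at E18, a clear separation with a log2 difference of 4.97 ± 0.82 (SE, limma, adjusted p = 0.00585) that held over all listed reads. miR-150, a lymphocyte microRNA, had 353 and 401 RPM at E14 and 81.7 and 36.8 RPM at E18, with E14 values close to each other on 12 and 159 reads (log2 difference -2.56 ± 0.70, adjusted p = 0.0403). Its call was lost without E14 replicate B. miR-142, shared by all blood lineages, had 25059 and 718 RPM at E14 and 25513 and 20340 RPM at E18, so that E14 replicate A lay within the E18 range and replicate B far under it (adjusted p = 0.315).

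The largest fall was that of miR-449a, and miR-449c, miR-34b and miR-34c fell as well. miR-449a had 10100 and 1038 RPM at E14 and 8.84 and 6.49 RPM at E18, miR-449c had 1737 and 156 RPM at E14 and 2.21 and 4.33 RPM at E18, miR-34b had 559 and 146.1 RPM at E14 and 6.63 and 2.16 RPM at E18 and miR-34c had 824 and 78.1 RPM at E14 and 0 and 0 RPM at E18. At E14 replicate A exceeded replicate B in all 4, by 3.83-fold to 11.1-fold, and at E18 all 4 lay at 8.84 RPM or less. The log2 differences of miR-449a, miR-449c and miR-34b were -7.53 ± 1.02, -5.35 ± 1.01 and -4.39 ± 0.91 (SE, limma, adjusted p = 0.00237, 0.0112 and 0.0154). For miR-34c, with no read at E18, the mean level was at least 68.1-fold lower there, taking 3 reads in 1 library as the floor (adjusted p = 0.0155), a limit that is 11.8-fold without E14 replicate A. For miR-449c, with 3 reads at E18 in all, the ratio of E14 to E18 was 289 (95% counting interval 98.8 to 1400), and without E14 replicate A it was 47.6, under that interval. All 4 calls held over all listed reads. miR-34a, of the same seed, had 1620 and 193.99 RPM at E14 and 239 and 142.8 RPM at E18, with overlapping stages, and was not called (adjusted p = 0.607). The 4 hairpins whose RefSeq entry held this seed (miR-449a, miR-449c, miR-34b and miR-34a) together held 1.40% and 0.153% of reads at E14 and 0.0256% and 0.0156% at E18, a sum that leaves out miR-34c and miR-449b, for which no such entry was matched.

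Of the epithelial miR-200 family, 3 of the 5 members fell and none rose (5.8% and 6.88% of all tested). All 5 had both E18 values under both E14 values (19.6% of all tested), and the median log2 difference was -3.32 beside 0.67 for all tested. miR-200c had 25972 and 4840 RPM at E14 and 79.5 and 177 RPM at E18 and its neighbour miR-141 had 1885 and 831 RPM at E14 and 26.5 and 32.5 RPM at E18. Their log2 differences were -6.44 ± 0.99 and -5.003 ± 0.85 (SE, limma, adjusted p = 0.00534 and 0.00624). miR-200b, of the other cluster on chromosome 4, had 26502 and 13579 RPM at E14 and 1613 and 2213 RPM at E18, a smaller log2 difference of -3.32 ± 0.76 (SE, adjusted p = 0.0197), and it kept a level of 1613 and 2213 RPM at E18 where miR-200c and miR-141 kept 26.5 to 177 RPM. The other 2 members of that cluster, miR-200a and miR-429, did not pass (log2 differences -1.93 ± 0.92 and -1.52 ± 0.92, adjusted p = 0.198 and 0.321). Over all listed reads the same 3 calls stood (6.04% of all tested there were lower). miR-205, a microRNA of stratified epithelia, had 501 and 794 RPM at E14 and 22.1 and 86.5 RPM at E18 (log2 difference -3.52 ± 0.74, SE, limma, adjusted p = 0.0154).

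miR-92b and miR-672 fell with E14 libraries close to each other. miR-92b had 913 and 955 RPM at E14 and 8.84 and 6.49 RPM at E18 and miR-672 had 854 and 1287 RPM at E14 and 8.84 and 25.96 RPM at E18. Their E14 libraries agree within 1.05-fold and 1.51-fold in spite of the difference in depth. The log2 differences were -5.74 ± 0.72 and -5.35 ± 0.72 (SE, limma, adjusted p = 0.00237 and 0.00237). miR-92b shares the seed of miR-25, of a miR-17-92 paralog cluster, which had 1767 and 2154 RPM at E14 and 4634 and 3793 RPM at E18 (adjusted p = 0.349). miR-135b had 265 and 186 RPM at E14 and 0 and 8.65 RPM at E18, on 9 and 74 reads at E14, and miR-708 had 618 and 299.8 RPM at E14 and 17.7 and 38.9 RPM at E18. Their log2 differences were -4.09 ± 0.68 and -3.58 ± 0.72 (SE, adjusted p = 0.00585 and 0.0154).

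**Figure D4:**
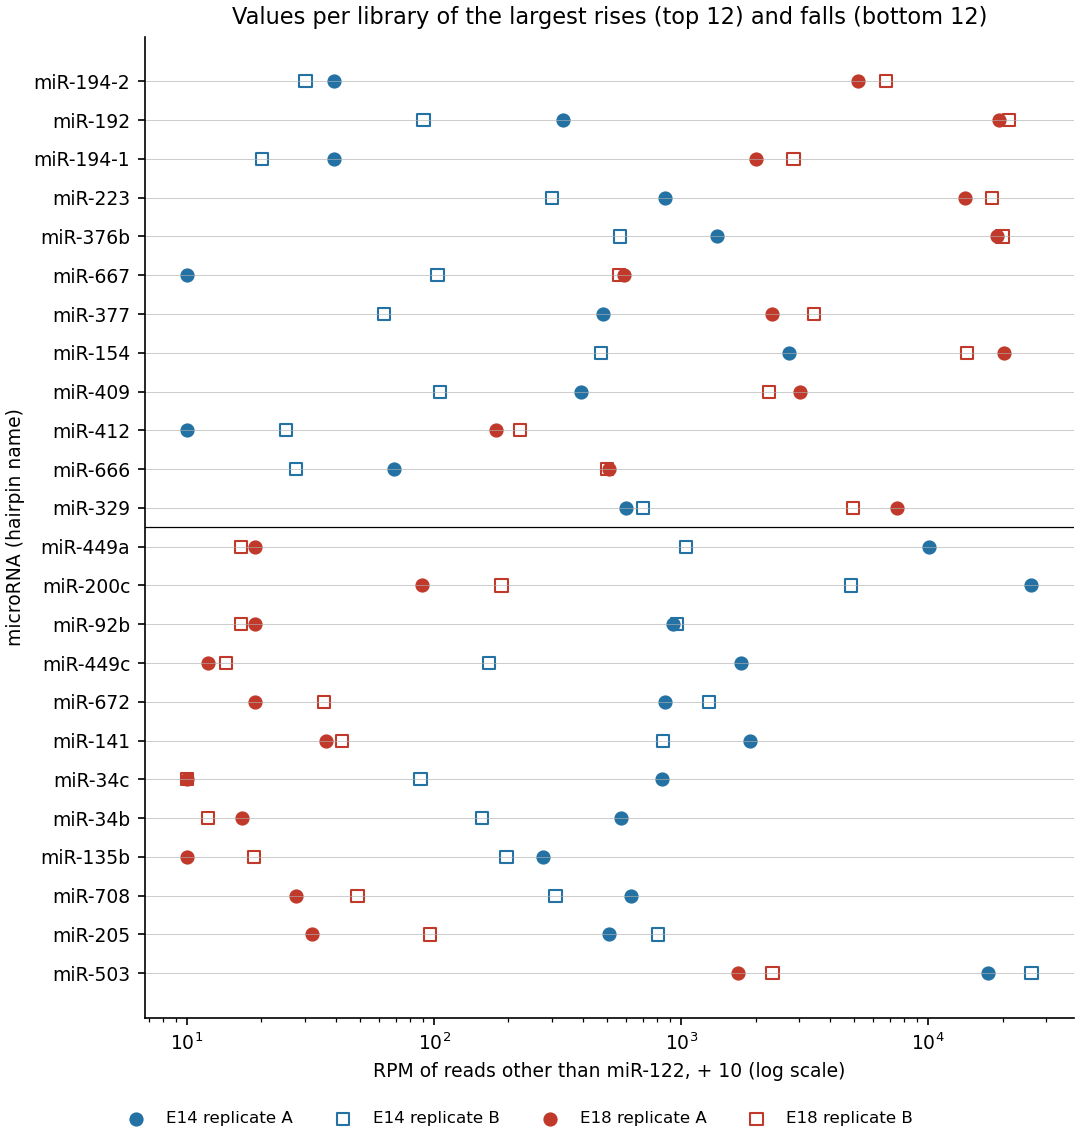
RPM of reads other than miR-122 plus 10 (x axis, log scale) in each of the 4 libraries for the 12 largest rises (above the line) and the 12 largest falls (below it), E14 in blue and E18 in red, replicate A filled and replicate B open. In every row the E14 and E18 points do not overlap, which the choice of these rows required, and the E14 pair is the wider one in most of them.

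In the X-linked cluster, miR-322 (the mouse counterpart of human miR-424) and miR-503, which slow the cell cycle in other tissues, fell. Its 7 members held 9.48% and 11.2% at E14 and 1.31% and 1.73% at E18, with the E14 libraries close to each other. miR-503 had 17403 and 26168 RPM at E14 and 1685 and 2332 RPM at E18 and miR-322 had 57450 and 22769 RPM at E14 and 4712 and 5997 RPM at E18. Their log2 differences were -3.42 ± 0.72 and -2.76 ± 0.76 (SE, limma, adjusted p = 0.0154 and 0.0412), and the call of miR-322 was lost without E14 replicate A and over all listed reads. The E14 libraries disagreed for other members. miR-351 had 7303 and 60982 RPM at E14 and 2452 and 2882 RPM at E18 (adjusted p = 0.16), the 2 hairpins of miR-450a had 4299 and 4623 RPM in E14 replicate A, 199.02 and 184 RPM in replicate B and 1699 to 2516 RPM at E18, and miR-450b stayed between 206.1 and 361 RPM. Of the 7, 2 were lower and none higher (5.8% and 6.88% of all tested), and 3 had a difference above 0 (178 of 276 in all). With the replicate block 3 were lower (8.33% of all tested), miR-351 being the other one.

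Hairpins that share the seed of miR-322 differed in direction. These, singled out after their values were seen, were 7 in the table, and their sum at E18 lay between the 2 values at E14, 8.04% and 3.54% of reads at E14 and 5.57% and 5.99% at E18. miR-322, miR-195 and miR-497 had both E18 values under both E14 values, and miR-195, with 1178 and 2892 RPM at E14 and 145.8 and 249 RPM at E18, passed as lower (log2 difference -3.21 ± 0.86, SE, limma, adjusted p = 0.0389). miR-15a, miR-15b and the 2 hairpins of miR-16, which give the same mature sequence, had both E18 values above both E14 values. Of all tested, 37.3% lay above in this way and 19.6% under. miR-15b had 4446 and 5255 RPM at E14 and 17948 and 22481 RPM at E18 and miR-16-1 had 5065 and 1847 RPM at E14 and 13612 and 12986 RPM at E18 (log2 differences 2.05 ± 0.92 and 2.12 ± 0.93, adjusted p = 0.18 and 0.178), and miR-15a had 4829 and 514 RPM at E14 and 5304 and 5039 RPM at E18 (log2 difference 1.70 ± 1.32, adjusted p = 0.452), so that none of these differences passed. With the replicate block both hairpins of miR-16 were higher and miR-497 was lower as well (16.7% higher and 8.33% lower of all tested). Over all listed reads the E18 sum is smaller by the share of miR-122, and the call of miR-195 was lost there.

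The let-7 family, known for its rise with maturation, did not move as one. None of its 11 tested members passed (median log2 difference -0.05), and its summed share was 6.98% and 23.8% at E14 and 6.23% and 10.0% at E18, so that the E14 libraries differed by more than the stage means. let-7b and let-7c-1 had both E18 values under both E14 values (4064 and 30685 RPM at E14 and 1153 and 2843 RPM at E18, and 7185 and 36583 RPM at E14 and 1904 and 4636 RPM at E18), while let-7g had 5006 and 4215 RPM at E14 and 10026 and 12925 RPM at E18 (adjusted p = 0.212, 0.193 and 0.347). let-7a-2 and let-7i had log2 differences of 0.42 ± 1.26 and -1.10 ± 0.79 (SE). With the replicate block 3 members were lower (8.33% of all tested). The cell-cycle-linked miR-17-92 and paralog clusters had no call among 13 tested members, with a median of 0.52 beside 0.67 for all tested. miR-17, miR-20a, miR-92a-1, miR-93 and miR-25 had log2 differences of -0.55 ± 1.18, 1.67 ± 1.35, 0.92 ± 0.72, 0.86 ± 0.82 and 1.10 ± 0.71 (SE), and at E14 miR-20a differed 10.7-fold between the libraries.

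Lists of the other cell types that a dissected liver could hold were mostly without calls. The mesenchymal list (miR-143, miR-145, miR-199 and miR-214 among others) had no call in 6 tested members. All 6 differences were below 0 (178 of 276 in all were above 0), and its share was 5.78% and 1.37% at E14 and 0.962% and 1.25% at E18. There E14 replicate A stood alone, as with miR-143 at 25854 and 1758 RPM at E14 and 4341 and 7101 RPM at E18, and miR-199a-1 and miR-145 had log2 differences of -1.47 ± 1.01 and -0.60 ± 0.87 (SE). miR-126, of endothelium, had 40194 and 31557 RPM at E14 and 24652 and 35194 RPM at E18 (log2 difference -0.27 ± 0.62, SE, limma, adjusted p = 0.82), the smallest SE of all tested microRNAs. The striated muscle list held 0.0736% and 0.0585% at E14 and 0.102% and 0.283% at E18. All 7 tested of its 9 members had a difference above 0 (178 of 276 in all). Of these 1, miR-499 of Myh7b, passed as higher (6.88% of all tested), with 58.9 and 12.6 RPM at E14 and 340.2 and 322.4 RPM at E18 (limma, adjusted p = 0.0377). The untested miR-208a and miR-208b went the other way. They had 88.3 and 68.0 RPM and 88.3 and 20.2 RPM at E14, and 0 and 0 RPM and 2.21 and 4.33 RPM at E18. miR-1-1 and miR-133a-1 had log2 differences of 0.71 ± 1.56 and 2.49 ± 0.96 (SE) and did not pass. With the replicate block 3 of this list were higher (16.7% of all tested), miR-499, miR-206 and miR-133a-1. The neuronal list was at 0.0147% of reads or less in all 4 libraries with no member tested, and miR-124-1 had 0, 7, 1 and 1 reads. miR-375, of endocrine pancreas and gut, had 177 and 1912 RPM at E14 and 203 and 486.8 RPM at E18 (adjusted p = 0.681). The pluripotent cell list reached at most 0.0147% of reads, and miR-292 had no read at E14 and 2 and 5 at E18.

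The remaining lists gave 1 call, that of miR-29a as higher (6.88% of all tested). With the replicate block there were 4 higher ones (16.7% of all tested), miR-29a, miR-29c and the 2 hairpins of miR-29b. The Sfmbt2 intronic microRNAs, a large rodent cluster within an imprinted gene, had no call in 20 tested of 51 listed, and held 0.506% and 0.183% at E14 and 0.292% and 0.436% at E18. Its near-identical hairpins make single values uncertain. The miR-23-27-24 clusters had no call in 6, and held 2.97% and 3.30% at E14 and 1.90% and 2.39% at E18. The miR-29 and miR-30 families had 1 call in 10, and held 5.72% and 3.53% at E14 and 4.03% and 5.01% at E18, with miR-30a at a log2 difference of 0.28 ± 0.67 (SE). The list of miR-181, miR-221 and miR-222 had no call in 8, and held 1.57% and 9.95% at E14 and 0.907% and 1.16% at E18, where miR-181a-1 alone went from 2768 to 33053 RPM between the E14 libraries and miR-221 had a log2 difference of -0.01 ± 1.25 (SE).

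Several of the most abundant microRNAs differed widely between the E14 libraries. miR-335, of the imprinted gene Mest, had 20995 and 117087 RPM at E14 and 18663 and 27293 RPM at E18. miR-130a had 98351 and 6966 RPM at E14 and 15074 and 18589 RPM at E18. The E14 mean of each rests on a single library, and neither passed the test (adjusted p = 0.486 and 0.781). miR-21, a widely expressed microRNA, had 37456 and 16884 RPM at E14 and 31709 and 53779 RPM at E18 (adjusted p = 0.691), again with the E14 values on both sides of the lower E18 one. Of the 10 with the highest mean over the 4 libraries (miR-451, miR-335, miR-21, miR-130a, miR-126, miR-376a, miR-322, let-7a-2, miR-351 and miR-144), 2 passed, miR-376a as higher and miR-322 as lower.

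The later livers of the course show how far each change lasted, with 10 postnatal libraries from P1 to P270. Of the 16 microRNAs lower at E18, 13 were under the lower E14 value in all 10 postnatal libraries, as were 32 of all 276 tested (11.6%), taking 3 reads as the least value of a library, and nothing is read from the difference, since the 16 were called on the same E14 values. miR-449c and miR-135b had no read in any of them, miR-92b reached at most 16.3 RPM and miR-449a at most 58.4 RPM. The exceptions were miR-150 and miR-205, each in 1 library, and miR-34c. The lower E14 value of miR-34c, 78.1 RPM, is under the worth of 3 reads in P21 (119.8 RPM), P28 (87.6 RPM) and P270 replicate A (137.5 RPM). Of the 19 microRNAs higher at E18, 15 were above the higher E14 value in all 4 libraries of P1 and P8, as were 46 of all 276 (16.7%), with the same floor and limit. At P270 the rises parted. miR-192, both hairpins of miR-194 and miR-29a were still above both E14 values in both libraries, and miR-29a reached 9760 and 31715 RPM. The 13 chr12qF1 microRNAs were all under both E18 values at P270, and 5 of them (miR-154, miR-300, miR-329, miR-376a and miR-376b) under both E14 values as well. The others cannot be placed, since 3 reads are worth 137.5 RPM in P270 replicate A, above an E14 value of each of them, and miR-412 and miR-667 had no read in E14 replicate A. miR-223 went from 14069 and 18122 RPM at E18 to 229 and 214.3 RPM at P270. These later stages are described without a test, and the E14 side of each statement rests on the same 2 libraries.

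**Figure D5:**
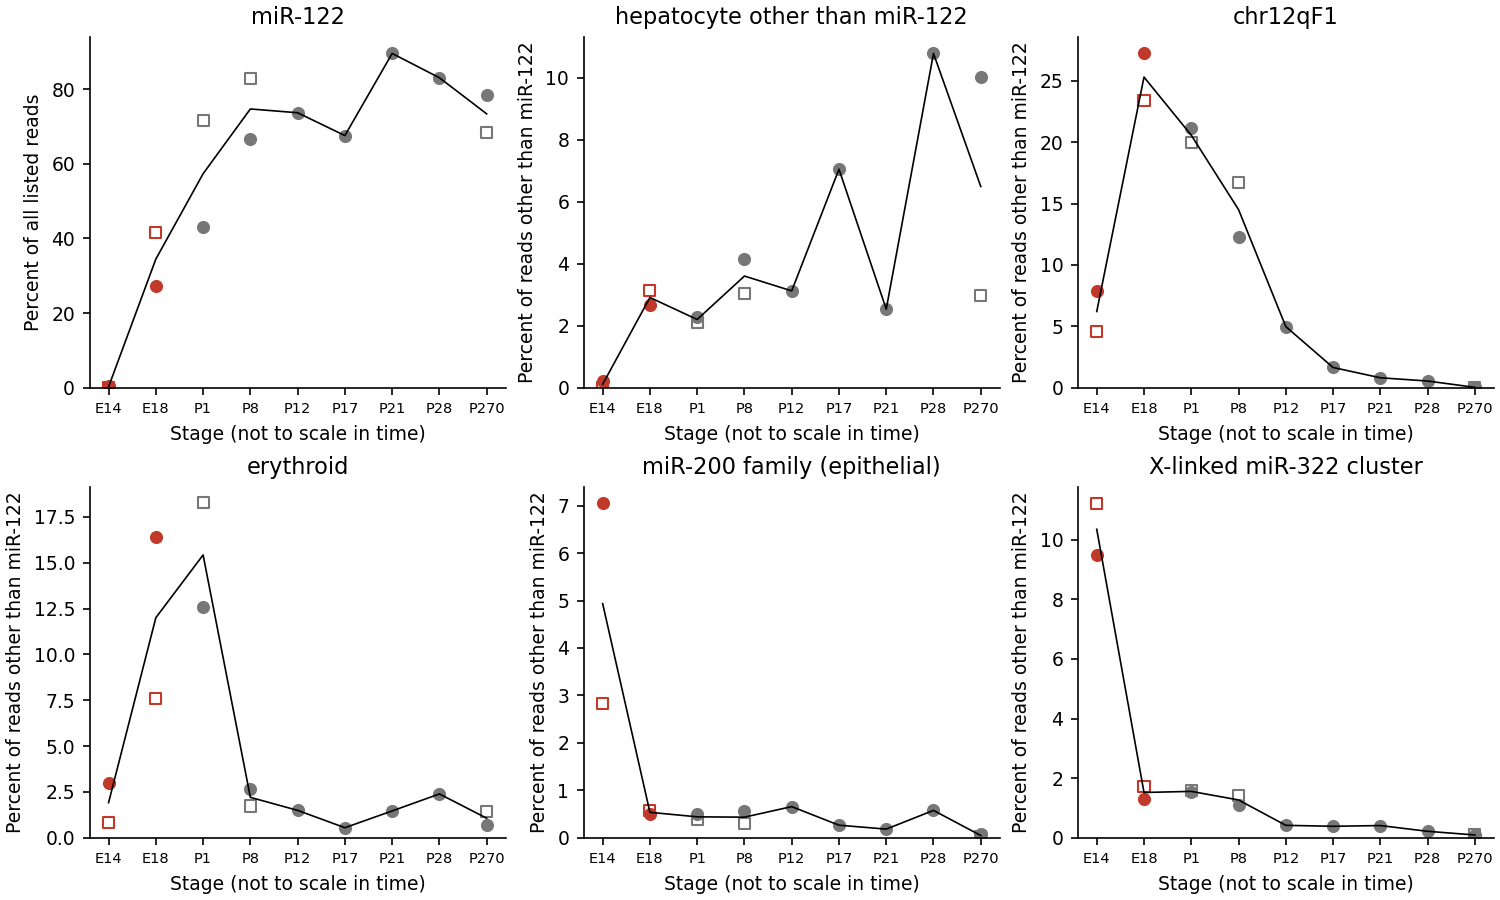
Share of reads (y axis, percent of all listed reads for miR-122 and of the other reads elsewhere) by stage (x axis, not to scale in time) for miR-122 and 5 lists, fetal libraries in red and later ones in grey, replicate A or the single library filled and replicate B open, the line joining stage means. The chr12qF1 share is highest at E18 (27.2% and 23.4%), while the miR-200 family and the miR-322 cluster are highest at E14 and stay low from E18 on.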

How the data were processed

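Small RNA libraries of the livers were made by ligating adapters to gel-selected RNA and sequenced on a MiSeq. The authors mapped them to known microRNAs using Bowtie (the submitters' notes name version 0.12.7 and the mm9 build) and deposited RPM with 1 added to each value. How reads that match several hairpins were counted is not given in the sources used here.

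The added 1 was removed, and reads were recovered from the step of the low values, 100.0% of which lay within 0.1 of a whole read. RPM were recomputed over the reads other than miR-122. For microRNAs averaging 50 RPM or more over the 4 fetal libraries, log2(RPM + 10) was fitted with limma 3.58.1 (R 4.3.3, moderated variance with a trend), with Benjamini-Hochberg adjustment and a threshold of 0.05. Summed shares of 19 lists were described without a test. Fits were tested on simulated data. Libraries were grouped by their labels. Replicate letters are shared between stages, and A minus B correlated positively in all 10 pairs of stages, at 0.21 for E14 with E18. The blocked counts are given for that reason, although the labels do not say what a letter marks.

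The members and the lists were chosen with earlier results of these data known. The single microRNAs named are the 12 largest rises and 12 largest falls past the threshold without overlap between the stages, the 10 highest means, and 45 fixed members of the lists. miR-195, miR-497, miR-15a, miR-15b, miR-16, miR-34a, miR-449b, miR-200a, miR-429, the miR-450 hairpins, miR-499, miR-206, miR-208a, miR-208b, miR-29b, miR-29c, miR-487b, miR-323, miR-485 and miR-300 were named after their values were seen. Count models were not used. Sequences and positions are from RefSeq (GRCm38.p6), and hairpins were set in gene spans without regard to strand. Alternatives were other scales, pseudocounts, filters and weights, and leaving out each library. Python 3.11.15 and matplotlib 3.10.9 made the tables and figures.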

Additional observations from a re-analysis of the deposited data

How the results depend on the processing

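The counts moved with the scale, the pseudocount and the libraries used. Beside 19 higher and 16 lower microRNAs, 35 in all, there were 7 higher and 23 in all over all listed reads, 9 higher over the authors' total, 10 higher after centring each library on its median, 8 and 8, 16 in all, with a pseudocount of 1, and 2 and 1, 3 in all, in the 4 fetal libraries alone. Leaving out 1 fetal library gave 1 to 38 higher, 2 to 20 lower and 3 to 54 in all. With the replicate letter as a block, 46 were higher, 69 in all, and it removed none of the 35 calls. Leaving out both libraries of short listed total (E14 and P270 replicate A), an alternative chosen after seeing the data as were library weights and voom weights, gave 51 higher, 33 lower and 84 in all. The other filters, a pseudocount of 50, library weights (16 and 12) and voom weights (23 and 16) gave counts within 1.5 times. None of the 35 reversed under any of these. Their lack of overlap between the stages fixed this in advance where libraries were left out, the block added or the pseudocount or filter changed. The fits that were planned with the count models of edgeR and DESeq2 were not run, and voom weights on the recovered reads stood in for them. The log2 ratio of the miR-122 share was 7.00, and 6.34 to 8.24 with 1 library left out. The log2 ratios of the summed list shares ran, with 1 library left out, from 2.22 to 4.27 for Igf2-H19 locus, -0.48 to 0.99 for Sfmbt2 intronic, 1.69 to 2.47 for chr12qF1, 1.99 to 3.83 for erythroid, 3.74 to 7.97 for hepatocyte list other than miR-122, -1.55 to 0.22 for let-7, 0.54 to 2.95 for leukocyte, -2.39 to -0.30 for mesenchymal, -0.66 to 1.05 for miR-17-92 and paralog clusters, -3.27 to -0.61 for miR-181, miR-221 and miR-222, -3.71 to -2.39 for miR-200 family, -0.34 to 0.36 for miR-29 and miR-30 families, -4.33 to -3.13 for neuronal, -2.28 to 1.15 for pancreas, -0.65 to 3.64 for pluripotent cell and 0.63 to 2.10 for striated muscle. Over all listed reads they were 1.43 for chr12qF1, -3.39 for X-linked miR-322 cluster, -0.90 for endothelial, -4.28 for neuronal, -1.17 for miR-23-27-24 clusters, -0.66 for miR-29 and miR-30 families. Over the authors' total they were -3.16 for X-linked miR-322 cluster, -0.61 for endothelial, -0.93 for miR-23-27-24 clusters. The medians of tested members were 2.50 for chr12qF1, -1.86 for X-linked miR-322 cluster, -0.11 for miR-23-27-24 clusters, 0.90 for miR-29 and miR-30 families. The lists whose ratio changed sign under an alternative (let-7, miR-17-92, miR-29 and miR-30, pancreas, pluripotent cell and Sfmbt2) differed between the stages by less than the spread within them. The cause of these shifts was not tested. Depth limits E14 replicate A most, where 50 RPM is fewer than 2 reads.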

Other observations

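E14 replicate A shares a short listed total with P28 and P270 replicate A, whose listed values add up to 66.1% and 51.7% of the authors' total. In these 3 libraries miR-706, looked at after its values were seen, had 19081, 131884 and 179894 RPM of reads other than miR-122, against 10.1 RPM in E14 replicate B, 8175 and 9727 RPM at E18 and 119.8 to 1594 RPM in the other postnatal libraries. miR-148a had 1796, 37531 and 31387 RPM in the same 3 libraries and 5.04 to 1844 RPM in the other 11. The part of this in the differences between E14 and E18 was not tested.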
